A study of Mus musculus with 12 samples.

Results

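The regions described here carried a trimethyl H3K4 (H3K4me3) peak in both treatments and a dimethyl H3K4 (H3K4me2) peak with vehicle but none with the LSD1 inhibitor S2101. They were found by pooling the peaks of 6 lists, merging peaks that overlapped by at least 1 bp into 51372 regions, and reading off which lists had a peak in each region; they were thus chosen by the presence and absence of peaks in 4 of the lists analysed. Of the 12715 regions with H3K4me3 in both treatments, 12347 also had Control H3K4me2, and 747 of these had no S2101 H3K4me2 peak. The 747 are called H3K4me2-losing regions below, and the 11600 with H3K4me2 in both treatments are called H3K4me2-keeping regions; "losing" refers to the peak lists only. In the S2101 group, C2C12 cells, a mouse myoblast line, were moved to medium with 2% horse serum and 10 µM S2101 for 48 h (day 2), while the Control group received vehicle in the same medium. Chromatin was immunoprecipitated for H3K4me1 and H3K4me2 in experiment 1 and for H3K4me3 in experiment 2, with 1 library per mark and treatment, from 1 cell line. The labels call the cells of all 6 libraries differentiating myoblasts.

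Methylation of lysine 4 on histone H3 marks regulatory DNA in graded form. H3K4me3 is concentrated at the nucleosomes next to active transcription start sites, H3K4me2 extends over the same promoters, their flanks and many enhancers, and H3K4me1 is typical of enhancers and the outer flanks of promoters. LSD1 (Kdm1a) is a flavin-dependent demethylase that removes the mono- and dimethyl marks and cannot act on the trimethyl mark. A region with H3K4me3 in both lists and H3K4me2 in the vehicle list only is therefore one where the listing of the dimethyl mark differed between treatments and that of the trimethyl mark did not. The dimethyl and trimethyl marks came from different experiments, so any contrast between them is also a contrast between experiments.

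The S2101 lists held 20664 H3K4me1, 24444 H3K4me2 and 14324 H3K4me3 peaks, and the Control lists 40432, 21447 and 13589. Despite its larger count, the S2101 H3K4me2 list covered 15.9 Mb and the Control list 34.1 Mb, with median peak widths of 552 and 1342 bp. Even in H3K4me2-keeping regions, S2101 H3K4me2 covered only 53.3% of the bases under Control H3K4me2 peaks. Less H3K4me2 under S2101 peaks was thus not particular to the losing regions. Each peak carries the score that the authors' peak caller gave it, which starts at about 100 and mostly stops at 3100 and ranks peaks only within its own list. The number of reads behind the lists is unknown, and no comparison of treatments has a replicate check. All intervals are 95% Wilson intervals and cover counting error only, since neighbouring regions are not independent and regions are not replicates.

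Loss of the H3K4me2 peak was less frequent where H3K4me3 was stable than elsewhere. Among regions with H3K4me3 in both treatments, 6.05% of those with Control H3K4me2 lacked S2101 H3K4me2 (interval 5.64 to 6.48%). Over all 18211 merged regions with Control H3K4me2 this share was 25.3%, and in the 5864 without H3K4me3 in both treatments it was 65.9%. These sets were not matched for Control H3K4me2 score, its covered length or region width. The part of these in the contrast was not tested. The reverse pattern, S2101 H3K4me2 without Control H3K4me2 over stable H3K4me3, was found in 48 regions. It could occur only in the few stable H3K4me3 regions without Control H3K4me2, of which 320 others had H3K4me2 in neither treatment. The 48 and the 747 are thus counts out of very different totals. These counts are what the rule selected, so they describe the lists and were not tested. With only peaks scoring 200 or more in every list, the number of H3K4me2-losing regions was 1606 rather than 747. This cut does not fall alike on the lists, since the median H3K4me2 score on autosomes was 267 with S2101 and 499 with Control.

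The vehicle H3K4me2 peaks that had no S2101 counterpart were weak and short for their list. The rule used the listing of these same peaks, and a weak peak more easily goes unlisted. The values below therefore describe what the rule selected. The highest Control H3K4me2 score per region had a median of 248 in H3K4me2-losing regions (quartiles 168 and 392) and of 829.9 in H3K4me2-keeping regions (567 and 1225.8). Control H3K4me2 covered 1081 bp at the median in H3K4me2-losing regions (quartiles 806 and 1514.5) and 2121 bp in H3K4me2-keeping regions (1584 and 2801). When the 12347 regions were ordered by Control H3K4me2 score and cut into 10 groups of nearly equal size, 39.3% of the lowest group (36.6 to 42.0%) and 11.5% of the next lacked S2101 H3K4me2. The share was 0.243% in the group with scores between 1086.79 and 1319.22, with 3 regions, and 0 of 1235 in each of the 2 groups above it, which allows a share of up to 0.31% in each. The pattern by covered length was alike, with 30.8% in the group with the shortest and 0.324% in that with the longest Control H3K4me2. A strong vehicle peak was the exception among losing regions: 61 of the 747 had a Control score over 600, 8.17%, compared with 71.8% of the keeping regions.

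The limit of the rule can be seen in the regions on either side of it. A Control H3K4me2 score of 110 or less, close to the lowest that was listed, was the highest in 27 of the 747 losing regions, and an S2101 H3K4me2 score of 110 or less in 111 of the 11600 keeping regions. The losing regions nearest to an S2101 H3K4me2 peak were on chromosome 18 (42670887 to 42673299, 2 bp away, and 38508946 to 38509845, 69 bp away) and chromosome 8 (75093424 to 75094343, 71 bp away). Just outside the rule, S2101 H3K4me2 covered 118 bp of a region on chromosome 5 (125867750 to 125868044), 150 bp on chromosome 3 (96043417 to 96043734) and 157 bp on chromosome 6 (18795205 to 18796535). Most losing regions lay far from any listed S2101 H3K4me2 peak. That distance does not show how close the S2101 signal inside a region came to being listed. An S2101 H3K4me2 peak lay within 1 kb of the edge in 47 of the 747, 6.29%, and within 10 kb in 165, 22.1%, and the median distance was 39611.5 bp (quartiles 11637.5 and 134983.75 bp; 746 regions, since 1 lay on a contig with no S2101 H3K4me2 peak).

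Chromosome X held a large part of these regions. On X, its unplaced contig included, 186 of the 341 regions with stable H3K4me3 and Control H3K4me2 lacked S2101 H3K4me2, 54.5% (49.2 to 59.8%). On the autosomes it was 561 of 11994, 4.68% (4.31 to 5.07%), and the 19 autosomes ranged from 2.15% on chromosome 4 to 9.88% on chromosome 7 (mean 4.77 ± 1.95%, SD over chromosomes, which are not replicates). Chromosome X thus contributed 24.9% of the H3K4me2-losing regions and 1.34% of the H3K4me2-keeping ones. After chromosome 7 the autosomes with the highest shares were chromosome 13, with 8.06%, and chromosome 18, with 6.73%, and those with the lowest after chromosome 4 were chromosome 15, with 2.41%, and chromosome 11, with 2.48%.

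**Figure D1:**
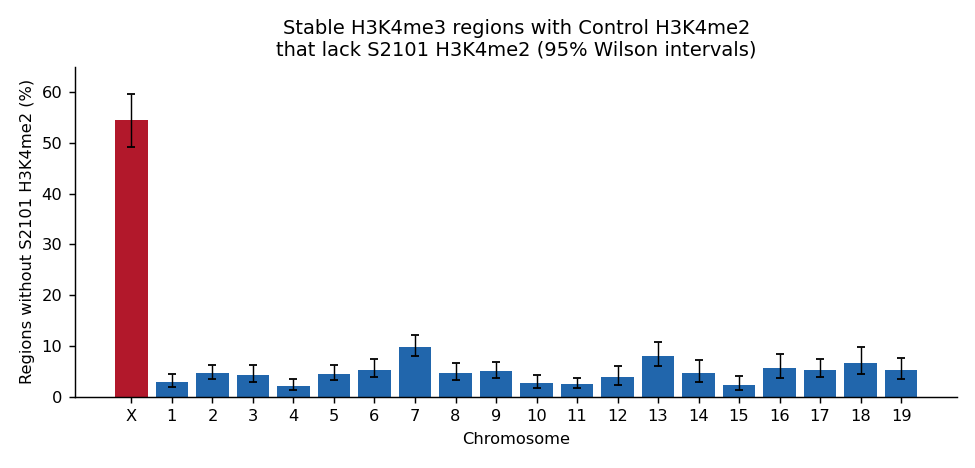
Percentage of regions with H3K4me3 in both treatments and Control H3K4me2 that lack S2101 H3K4me2, by chromosome (bars, X in red and autosomes in blue), with 95% Wilson intervals. The bar of X stands at 54.4% (185 of 340, without the unplaced contig), above all autosomes, which lie between 2.15 and 9.88%.

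Vehicle H3K4me2 was itself weaker on X than on the autosomes. The median Control H3K4me2 score of the regions compared was 258 on X and ranged from 579.9 on chromosome 7 to 1164.22 on chromosome 15 over the autosomes. Across the 19 autosomes, the share lacking S2101 H3K4me2 and the median Control score had a Spearman coefficient of −0.684 and a Pearson coefficient of −0.719, values of 1 pair of libraries given as a description. X is not among them. Both quantities come from the H3K4me2 lists that the rule used, and a weak peak more easily goes unlisted. The shares on X and on the autosomes were also set side by side within ranges of Control H3K4me2 score. In the 6 score ranges with at least 20 regions on both sides the share was higher on X in all 6, and the intervals were apart in 5. At scores over 200 and up to 300 it was 67.9% of 81 regions on X (57.1 to 77.1%) and 25.2% of 539 on autosomes (21.7 to 29.1%), and at scores over 400 and up to 600 it was 33.3% of 60 (22.7 to 45.9%) and 4.70% of 2000 (3.86 to 5.72%). At scores up to 150 the intervals overlapped, with 79.2% of 53 regions on X and 64.0% of 164 on autosomes. By covered length of Control H3K4me2, the share was higher on X in all 4 ranges that could be compared, for example 64.2% of 95 and 8.12% of 2045 between 1000 and 1500 bp. The ranges are wide, and scores and lengths were not matched within them. The part of the weaker Control H3K4me2 on X in the result was not tested.

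**Figure D2:**
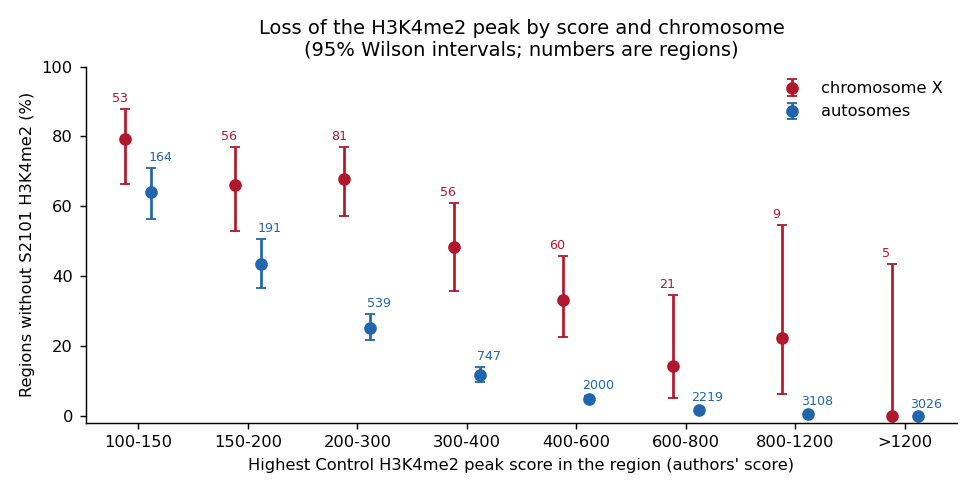
Percentage of stable H3K4me3 regions with Control H3K4me2 that lack S2101 H3K4me2 (y axis), by the highest Control H3K4me2 score in the region (x axis), for chromosome X (red) and autosomes (blue); bars are 95% Wilson intervals and numbers are regions. Points of X lie above those of the autosomes up to a score of 1200, with 9 regions on X in the range from 800 to 1200 and 5 above it.

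On X, the bases covered with S2101 relative to Control were fewer than on any autosome for H3K4me2 and H3K4me1, and not for H3K4me3. The S2101 H3K4me2 list had 229 peaks on X and the Control list 487, and the covered length had a ratio of 0.192 (S2101 over Control), outside the range of the autosomes, 0.393 to 0.545. For H3K4me1 there were 21 and 77 peaks on X, and the ratio was 0.235, compared with 0.279 to 0.433 on autosomes. For H3K4me3 there were 453 and 433 peaks, and the ratio was 1.10, within the autosomal range of 1.09 to 1.11. H3K4me3 came from a different experiment than H3K4me1 and H3K4me2. A difference between marks on X therefore cannot be told apart from a difference between experiments, and which of them applies was not tested. Even where X regions kept H3K4me2, S2101 peaks covered a median of 463 bp and Control peaks 1573 bp (155 regions), against 1134 bp and 2127 bp on autosomes (11433 regions).

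H3K4me3 was listed in both treatments by definition, and its strength in the losing regions differed between X and the autosomes. In the 186 losing regions on X, H3K4me3 covered 1647.5 bp with S2101 and 1523 bp with Control at the median. In the 561 losing regions on autosomes it covered 1144 bp with S2101 and 995 bp with Control, while in H3K4me2-keeping regions it covered 1926 bp with S2101 and 1814 bp with Control. Losing regions on X were thus closer in H3K4me3 length to keeping regions than losing regions on autosomes were. In the S2101 list the H3K4me3 score reached the upper limit of 3100 in 36.6% of losing regions on X (30.0 to 43.7%) and 49.7% of keeping regions there (41.9 to 57.5%). In the Control list these shares on X were 22.0% (16.7 to 28.5%) and 31.0% (24.2 to 38.6%). On autosomes the S2101 list had 22.6% of losing regions (19.4 to 26.3%) and 72.0% of keeping regions (71.2 to 72.8%) at the limit, and the Control list 18.0% (15.0 to 21.4%) and 65.1% (64.2 to 65.9%). The intervals of losing and keeping regions were thus apart on autosomes and overlapped on X, in both lists. The share was lower in losing regions on X as well, and intervals there are wider because X has fewer regions. Where the Control H3K4me3 score was at the limit, 1.34% of 7541 autosomal regions lacked S2101 H3K4me2 (1.10 to 1.62%), compared with 10.3% of 4453 below the limit (9.47 to 11.3%). On X these shares were 46.1% of 89 (36.1 to 56.4%) and 57.5% of 252 (51.4 to 63.5%), intervals that overlap.

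H3K4me3 was mostly longer with S2101 in the losing regions, as it was in stable H3K4me3 regions at large. Its covered length was 1.08 times as long with S2101 as with Control at the median of the losing regions (quartiles 1.0 and 1.20) and 1.06 times in keeping regions (1.0 and 1.13). It was longer with S2101 in 562 of 747 losing regions, 75.2% (72.0 to 78.2%), and in 75.0% of all 12715 regions with H3K4me3 in both treatments. A length at least 1.5 times as long was found in 49 losing regions, 6.56% (5.0 to 8.57%), in 2.72% of keeping regions (2.44 to 3.03%) and in 3.25% of all stable H3K4me3 regions. Of these 49, 44 were on autosomes and 5 on X. In the 320 regions with stable H3K4me3 and H3K4me2 in neither treatment the share was 13.8% (10.4 to 18.0%). The contrast between treatments is the one the rule used, so these values are a description.

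**Figure D3:**
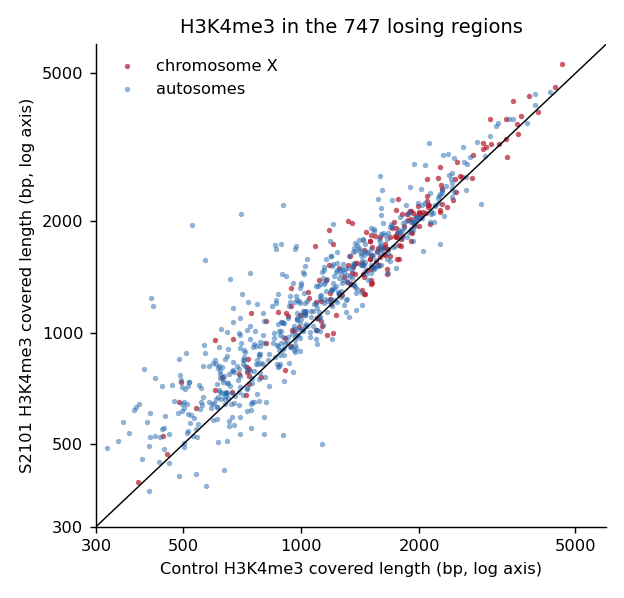
Bases covered by H3K4me3 in each of the 747 H3K4me2-losing regions with S2101 (y axis) and with Control (x axis), both on log axes, for chromosome X (red) and autosomes (blue); the line marks equal length. Most points, 562 of 747, lie above the line, and the points of X reach further to the right, with medians of 1647.5 bp (S2101) and 1523 bp (Control) on X.

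The 3 regions with the highest S2101 over Control ratio of H3K4me3 length all had weak Control H3K4me3. On chromosome 17 (48569133 to 48572148) H3K4me3 covered 1957 bp with S2101 and 528 bp with Control, a ratio of 3.71, under a Control H3K4me2 peak of 2782 bp. The other two were on chromosome 16 (5131405 to 5133109), with 1243 bp and 414 bp, and on chromosome 19 (5013185 to 5015267), with 2083 bp and 703 bp. In the opposite direction, H3K4me3 covered 500 bp with S2101 and 1130 bp with Control on chromosome 11 (118071458 to 118074599), 530 bp and 899 bp on chromosome 13 (49599571 to 49600967), and 535 bp and 803 bp on chromosome 17 (35136630 to 35137453). The Control H3K4me3 score was at most 144.68 in the first 3 of these regions and at most 343.97 in the last 3, so none had strong H3K4me3 in the Control list.

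H3K4me1, whose presence the rule did not use, was less frequent in losing than in keeping regions in both treatments. Its peaks did help to set the region borders, since all 6 lists were merged. Losing regions were narrower, with a median width of 1511 bp, than keeping regions, with 2280 bp. Wider regions can touch more peaks of any list, and the part of width in these shares was not tested. An S2101 H3K4me1 peak was present in 42 of 747 losing regions, 5.62% (4.19 to 7.51%), and in 15.3% of keeping regions (14.7 to 16.0%). A Control H3K4me1 peak was present in 107 of 747 losing regions, 14.3% (12 to 17.0%), and in 41.6% of keeping regions (40.7 to 42.5%). H3K4me1 was nearly absent from X: none of the 186 losing regions there had it with S2101, which allows a share of up to 2.02%, and 3 had it with Control. On autosomes alone the losing regions had S2101 H3K4me1 in 7.49% and Control H3K4me1 in 18.5% of cases, and the keeping regions in 15.5% and 42.2%. In the 320 regions with H3K4me2 in neither treatment the shares were lower still, 1.88% with S2101 and 4.06% with Control.

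**Figure D4:**
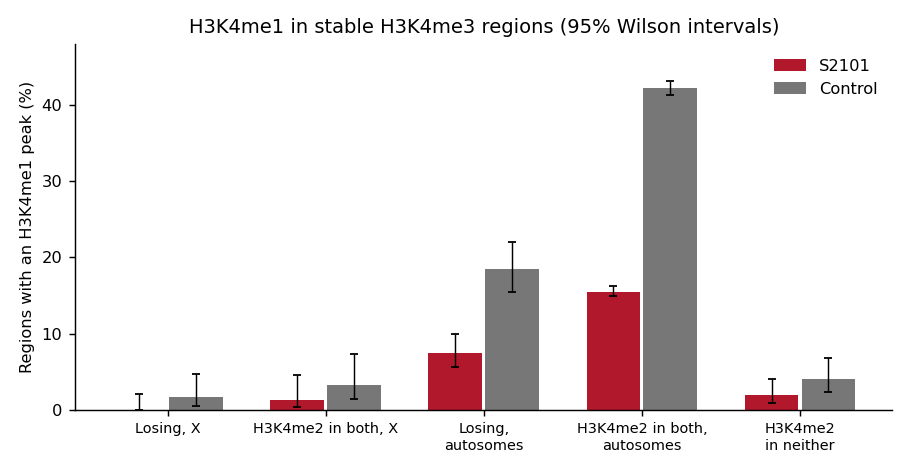
Percentage of regions with an H3K4me1 peak with S2101 (red) and with Control (grey), with 95% Wilson intervals, in H3K4me2-losing regions, in regions with H3K4me2 in both treatments (X and autosomes apart) and in regions with H3K4me2 in neither. Autosomal losing regions stand at 7.49% and 18.5%, below autosomal regions with H3K4me2 in both at 15.5% and 42.2%, and both groups on X are at or below 3.23%.

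Where H3K4me1 was listed with Control, the share without it in the S2101 list was near the background in losing regions. Of the 107 losing regions with Control H3K4me1, 75 had none with S2101, 70.1% (60.8 to 77.9%). This was 69.6% in keeping regions with Control H3K4me1 (68.3 to 70.9%), 69.6% over all 4950 stable H3K4me3 regions with it and 66.5% over all 36274 merged regions with it. H3K4me1 appeared with S2101 only in 10 of the 640 losing regions without Control H3K4me1, 1.56% (0.851 to 2.85%), compared with 4.61% of such keeping regions (4.13 to 5.13%) and 4.16% of the 7765 such regions with stable H3K4me3. On autosomes it was 2.19% of such losing regions (1.19 to 3.98%) and 4.70% of such keeping regions (4.22 to 5.24%), so the S2101-only share was lower in losing regions, with intervals apart. Under Control H3K4me2 peaks, H3K4me1 covered less and H3K4me3 more with S2101 than with Control, in losing and in keeping regions. Of the 925618 bases under Control H3K4me2 peaks in losing regions, S2101 H3K4me1 peaks covered 1.48% and Control H3K4me1 peaks 6.06%. S2101 H3K4me3 covered 82.9% of those bases and Control H3K4me3 76.7%. In keeping regions the same shares were 2.95% and 13.2% for H3K4me1 and 84.4% and 79.7% for H3K4me3.

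Regions with Control H3K4me1 lacked S2101 H3K4me2 less often, and this was less clear among regions of like Control H3K4me2 score than among those of like length. On autosomes, 2.11% of regions with Control H3K4me1 lacked S2101 H3K4me2 (1.75 to 2.55%), compared with 6.46% of those without it (5.91 to 7.06%). Among regions of like Control H3K4me2 score, the share was lower with H3K4me1 in 7 of 8 score ranges, and the intervals overlapped in all 8. Overlap does not show equal shares, and the range from 100 to 150 held only 23 regions with H3K4me1. Between 300 and 400 it was 10.8% of 158 regions with H3K4me1 and 11.9% of 589 without it, and between 800 and 1200 it was 0.289% of 1385 and 0.929% of 1723. Among regions of like Control H3K4me2 length, the share was lower with H3K4me1 in all 5 ranges, and the intervals were apart in 3, as between 1000 and 1500 bp with 4.78% of 607 and 9.53% of 1438. Both kinds of range rest on the Control H3K4me2 list that the rule used. H3K4me1 peaks can also widen a region, so that it touches other peaks more easily, and the part of width was not tested.

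In the Control lists, H3K4me2 of the losing regions mostly lay over the H3K4me3 peak. Control H3K4me2 covered the midpoint of the widest Control H3K4me3 peak in 87.6% of losing regions and 94.9% of keeping regions. No S2101 H3K4me2 peak can lie at this midpoint in losing regions, by the rule that chose them, so S2101 H3K4me2 is not compared here. The midpoints of the widest Control H3K4me2 and H3K4me3 peaks of a losing region were 158 bp apart at the median, and 8 of the 747 had widest peaks that did not overlap. Losing regions on X and on autosomes differed in shape. On X, Control H3K4me2 covered 72.0% of the midpoints and 60.0% of the H3K4me3 peak at the median, and it was longer than Control H3K4me3 in 26.3% of regions (20.5 to 33.1%). On autosomes it covered 92.7% of the midpoints and 91.4% of the H3K4me3 peak, and was longer than H3K4me3 in 63.1% (59.0 to 67.0%). In the 155 keeping regions on X, Control H3K4me2 covered 79.4% of midpoints and 65.7% of the H3K4me3 peak at the median, and was longer than H3K4me3 in 40.0% (32.6 to 47.9%).

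**Figure D5:**
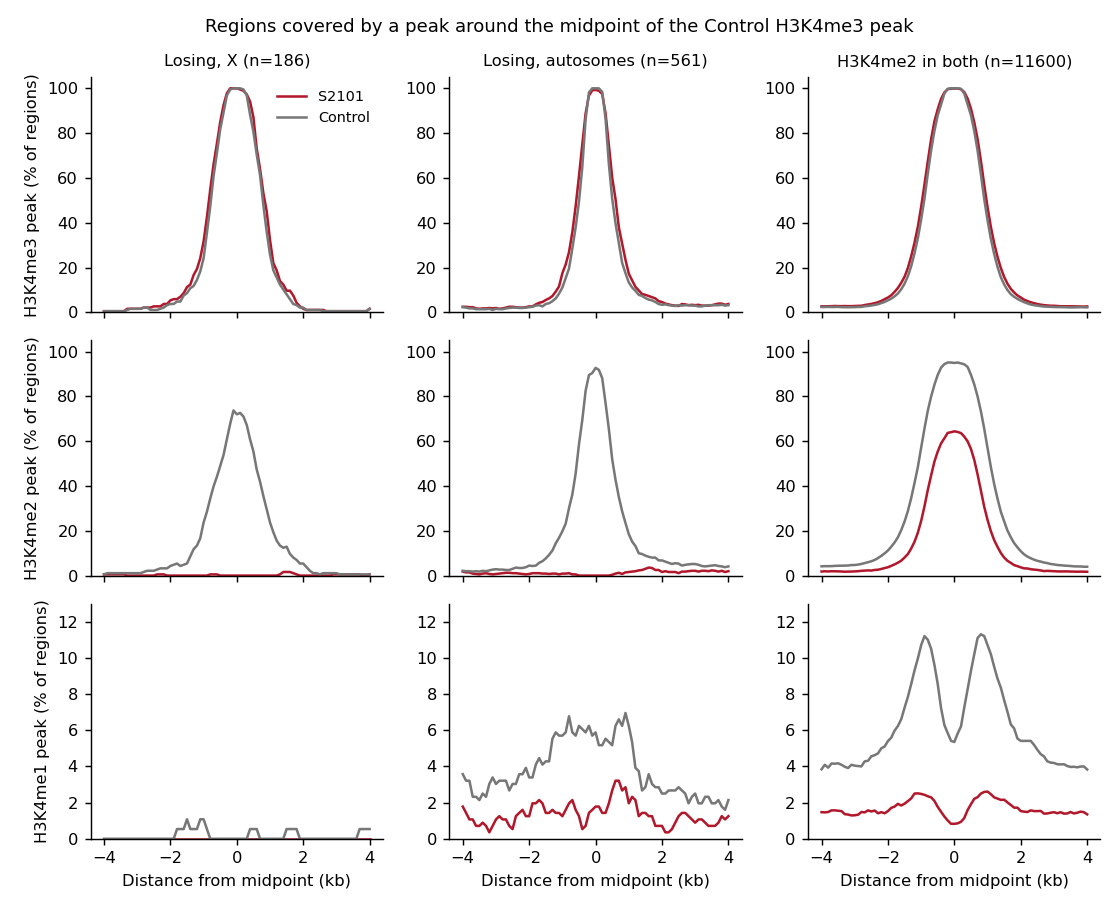
Percentage of regions in which the position at a given distance (x axis, kb) from the midpoint of the widest Control H3K4me3 peak lies in a peak of H3K4me3, H3K4me2 or H3K4me1 (rows), with S2101 (red) and Control (grey), for losing regions on X, losing regions on autosomes and regions with H3K4me2 in both treatments (columns); the H3K4me1 axis is stretched. H3K4me3 covers 60.8% of autosomal losing regions with S2101 and 49.4% with Control at 0.5 kb on the lower-coordinate side, and Control H3K4me1 forms shoulders on both sides in the right column. The absence of S2101 H3K4me2 within losing regions is what the rule selected.

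The paired H3K4me1 shoulders seen beside keeping regions were weak or missing beside losing ones. At 1 kb on the higher-coordinate side, H3K4me1 peaks covered 1.96% of autosomal losing regions with S2101 and 6.24% with Control, and 5.88% of their midpoints with Control. In keeping regions H3K4me1 covered 2.61% of these positions with S2101 and 10.7% with Control, but only 5.35% of the midpoints with Control. No losing region on X had an S2101 H3K4me1 peak at either position.

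The losing region with the highest Control H3K4me2 score, 1310.65, was on chromosome 4 (80556230 to 80560437). Control H3K4me2 covered 3673 bp there, and H3K4me3, with a score of 3100 in both lists, covered 3612 bp with S2101 and 3143 bp with Control. The next by score, 1286.16, was on chromosome 18 (75534125 to 75539442), where Control H3K4me2 covered 3746 bp and the nearest S2101 H3K4me2 peak was 983 bp away. It was also rich in H3K4me1 with vehicle, which covered 364 bp with S2101 and 2537 bp with Control, and its H3K4me3 covered 1734 bp with S2101 and 891 bp with Control. Of the 4 that came after these, a region on chromosome 9 (103265389 to 103268173) had a score of 1105.63 and one on chromosome 13 (119502747 to 119504583) a score of 1051.33. Another on chromosome 9 (24306222 to 24308717) scored 1045.84 and one on chromosome 17 (80013661 to 80015591) scored 1031.8. None of these 4 had an H3K4me1 peak in either treatment. Their distance to S2101 H3K4me2 ranged widely, from 338 bp for the first on chromosome 9 to 645974 bp for the second.

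Among the longest missing H3K4me2 domains, those on chromosomes 7 and 3 had no H3K4me1 in either list. Control H3K4me2 covered 4028 bp on chromosome 7 (82786847 to 82790912, score 629.23), where H3K4me3 covered 3019 bp with S2101 and 2303 bp with Control. It covered 3895 bp on chromosome 3 (19543615 to 19547509, score 887.32), with H3K4me3 over 1730 bp with S2101 and 2255 bp with Control. A further region on chromosome 7 (118223864 to 118228114) had 3450 bp of Control H3K4me2 and H3K4me3 over 3762 bp with S2101 and 3394 bp with Control. The direction of the H3K4me3 length therefore differed within this group, being shorter with S2101 in the region on chromosome 3.

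Long H3K4me3 domains were also among the losing regions, and 3 of the 5 longest by Control H3K4me3 were on X. The longest, on X (6891668 to 6896980), had H3K4me3 over 5290 bp with S2101 and 4618 bp with Control, and Control H3K4me2 over 2382 bp. The next, again on X (39501657 to 39507176), had H3K4me3 over 4589 bp with S2101 and 4432 bp with Control, and Control H3K4me2 over 2534 bp. Another on X (100675638 to 100679814) had H3K4me3 over 3941 bp with S2101 and 4022 bp with Control, and Control H3K4me2 over 1225 bp. In each of them Control H3K4me2 covered fewer bases than H3K4me3 did in either list. On chromosome 3 (148650068 to 148654181), H3K4me3 of 4114 bp with S2101 and 3956 bp with Control held a Control H3K4me2 peak of 698 bp with a score of 130.88, and the nearest S2101 H3K4me2 peak was 2134049 bp away. The last of the 5, on chromosome 19 (8892299 to 8897261), had 4462 bp of H3K4me3 with S2101 and 4296 bp with Control. The losing regions farthest from any S2101 H3K4me2 were all on X, at 116412518 to 116414347 (10203034 bp), 83021023 to 83023101 (4704167 bp) and 82818487 to 82820455 (4501631 bp).

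A minority of losing regions kept H3K4me1 in both treatments, 32 of 747, none of them on X. The highest S2101 H3K4me1 score among them, 622.68, was on chromosome 19 (46695009 to 46698604), where H3K4me1 covered 1857 bp with S2101 and 3067 bp with Control, and H3K4me3 was short, at 631 bp with S2101 and 609 bp with Control. A second on chromosome 19 (3928737 to 3931487) had H3K4me1 over 1069 bp with S2101 and 1992 bp with Control. The others of the top 5 were on chromosome 5 (35331023 to 35333105) and chromosome 15 (101211314 to 101213544, and 100517280 to 100518532), with S2101 H3K4me1 over 1255, 1222 and 740 bp and Control H3K4me1 over 1495, 1545 and 840 bp. H3K4me1 was thus shorter with S2101 in all 5. The whole H3K4me1 lists differed in the same direction, with 9.34 Mb covered with S2101 and 26.9 Mb with Control, and median peak widths of 384 and 535 bp. As a group the 32 had short H3K4me3, 954 bp with S2101 and 857 bp with Control at the median, and stronger Control H3K4me2, with a median score of 394, than the 630 losing regions without H3K4me1 in either treatment, which had 1310 bp, 1184 bp and a score of 231. Of these 630, 183 were on X, so this contrast also holds the difference between X and autosomes given above.

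The 10 losing regions with H3K4me1 in the S2101 list only had low H3K4me1 scores. The highest, 177.42, was on chromosome 7 (20407274 to 20408406), where H3K4me1 covered 402 bp with S2101 and Control H3K4me2 had covered 878 bp. A region nearby on chromosome 7 (19917662 to 19919325) had a score of 141.89. One on chromosome 4 (95224123 to 95225169) scored 124.13, one on chromosome 5 (114379626 to 114380693) scored 114.7, and one on chromosome 15 (3306206 to 3307138) scored 113.53. S2101 H3K4me1 covered between 287 and 528 bp in these 5.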

How the data were processed

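The 6 deposited lists of ChIP-seq peaks were used, 1 per mark and treatment. Peaks were called with MACS in Galaxy, per the file headers, 1 list per library. Bowtie2, deepTools and build mm9 are named in the submitters' processing notes; for the caller, its version, settings, input and treatment of duplicates are not stated in these sources. The deposited score is the value the authors' caller gave each peak; many stand at exactly 3100. The read depth behind each list is unknown. The gene and promoter tables at hand are of GRCm38, so no gene names or sequences were attached. Coordinates are mm9, 1-based.

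Peaks overlapping by 1 bp were merged into regions, and a mark was present when a region touched a peak. Covered lengths are bases under peaks within a region, and a region's score is its highest. No test was made, since each group has 1 library. Intervals are 95% Wilson intervals. Named regions are the 6 with the highest Control H3K4me2 score, the 5 with the longest Control H3K4me2 and the 5 with the longest Control H3K4me3 coverage, the 5 with the highest S2101 H3K4me1 score without and with Control H3K4me1, the 3 with the highest and the lowest H3K4me3 ratios, the 3 nearest to and farthest from S2101 H3K4me2, and 3 just outside the rule. The regions and comparisons were chosen with earlier results of these data known, and the split into X and autosomes and the score and length ranges after values were seen. The alternatives were peaks scoring 200 or more, lists of equal length, marks covering 10% of a region, S2101 H3K4me2 within 1 kb counted as kept, merging across 500 bp, and autosomes only. On 5000 simulated regions, all 200 planted losing regions were recovered, with the same counts as bedtools 2.31.1. The work was done in Python 3.11.15 with pandas 2.3.3, numpy 2.4.6 and scipy 1.17.1; figures were drawn with matplotlib 3.10.9.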

Additional observations from a re-analysis of the deposited data

How the results depend on the processing

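The number of regions depends on which peaks count. With only peaks scoring 200 or more it was 1606, and the share of stable H3K4me3 regions with Control H3K4me2 that lacked S2101 H3K4me2 was 14.1%, with 76.2% on X and 12.8% on autosomes. In the regions then chosen, H3K4me1 was present in 1.62% with S2101 and 6.54% with Control, the median Control H3K4me2 score was 451 and its covered length 1512 bp, and the H3K4me3 ratio was 1.06. With lists of equal length the share was 8.13%, with 63.5% on X and 6.55% on autosomes; Control H3K4me1 was present in 6.53%, and the median Control H3K4me2 score and length were 282 and 1166.5 bp. Merging across 500 bp put S2101 H3K4me1 at 7.57%. On autosomes only, the share was 4.68%, Control H3K4me1 was present in 18.5% and the median Control H3K4me2 score was 266. The cause of these moves was not tested beyond what each setting leaves out. A cut at a score of 200 leaves out a different part of each list, since scores rank peaks only within a list. In each setting with X, the share on X was above that on autosomes, and in all 6 the Control H3K4me1 share was lower in losing than in keeping regions (6.54% and 19.5% at the stricter score). Among the recomputed values, 44 stayed within their interval or within 1.5 times the count and 27 moved further. The 44 include the autosomal share with autosomes only, which is the same by definition. No paired analysis was possible because each mark and treatment has 1 library and no test was made. Depth limits the reading of a missing peak, since the reads under it are unknown.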

Other observations

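Losing regions followed each other along chromosome X about as often as their share there gives. Among regions with stable H3K4me3 and Control H3K4me2 taken in order along X, the next region was also a losing one for 106 of 185, 57.3%, and the longest run was 8. On autosomes the next region was a losing one for 43 of 557, 7.72%, and the longest run was 5. The overall shares of losing regions were 54.5% on X and 4.68% on autosomes, and the differences from them were not tested.

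Regions with stable H3K4me3 and H3K4me2 in neither treatment were more often on X than keeping regions were, with 57 of 320, 17.8% (95% Wilson interval 14.0 to 22.4%). X held 24.9% of losing and 1.34% of keeping regions, and 341 of all 12347 stable H3K4me3 regions with Control H3K4me2. In the 320 regions, H3K4me3 covered 846 bp with S2101 and 708 bp with Control at the median. In the 48 regions with S2101 H3K4me2 only, that mark covered 334 bp at the median with a median score of 152, H3K4me3 covered 756 bp with S2101 and 654 bp with Control, and H3K4me1 was present in 0 with S2101 and in 2 with Control.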
